A study of Homo sapiens with 2 samples.

Results

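Some probe sets of an expression array are annotated with more than 1 gene. Of the 22011 probe sets measured here, the platform annotation named 2 or more different gene symbols for 2406, and these 2406 are the subject of this report. A further 14434 carried 1 symbol and 5171 carried none. The 2406 probe sets held 4573 distinct symbols, of which 4569 matched the RefSeq gene table. By RefSeq type, 3570 were protein coding, 378 transcribed pseudogenes, 252 long non-coding RNAs, 134 microRNAs and 124 small nucleolar RNAs (snoRNAs). Exactly 2 symbols stood on 1954 of the probe sets, and the longest entry held 15.

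RNA came from J82, an established human bladder cancer cell line grown in DMEM medium with fetal bovine serum. Cells were stained with the DNA dye Hoechst and sorted by flow cytometry into a side population (SP), which retains little of the dye, and a non-side population (NSP), which retains it. Total RNA of each sorted population was hybridised to a human exon array, 1 array for SP and 1 for NSP, with no genetic change or drug named for either group. With 1 array in each population there is no replicate error, and no test or p-value is given: every difference describes these arrays only. All values are log2 signals after RMA normalisation, and a difference is SP minus NSP.

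Several genes come to share a probe set in a few known ways. Genes can overlap on the same strand or lie in each other's introns, as microRNAs and snoRNAs do within the host genes from whose transcripts they are cut out. Neighbours on opposite strands can overlap at their ends or start back to back from a common promoter, and duplicated genes or processed pseudogenes can be so alike that a probe matches them all. A value on such a probe set therefore does not by itself say which of the named genes was transcribed. Place and strand, inferred from the array's ID order, can narrow this. For 686 members exactly 1 named gene lay on the strand read there, with no gene of unknown strand.

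MicroRNA genes illustrate the host relation, and the mature sequences shown are those named on probe sets with differences of 1.5-fold or more in size, followed by 3 from well-studied host transcripts. Of the 134 microRNA genes, 123 had a mature form in the RefSeq table of GRCh38.p14. Capitals mark the seed, bases 2 to 8, which pairs with target messages.
hsa-miR-3128: uCUGGCAAguaaaaaacucucau
hsa-miR-3189-5p: uGCCCCAUcugugcccuggguagga
hsa-miR-604: aGGCUGCGgaauucaggac
hsa-miR-31-5p: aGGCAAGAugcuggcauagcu
hsa-miR-572: gUCCGCUCggcgguggccca
hsa-miR-21-5p: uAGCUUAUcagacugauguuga
hsa-miR-106b-5p: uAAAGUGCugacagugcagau
hsa-miR-93-5p: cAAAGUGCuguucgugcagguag
miR-3128 (chr2:177255984-177256006, minus strand) lies in NFE2L2, and miR-604 (chr10:29545019-29545037, minus strand) in SVIL, the gene of the actin-binding protein supervillin. miR-3189 (chr19:18386570-18386594 for the 5p arm, plus strand) lies in GDF15, the gene of a stress-induced cytokine. miR-31 (chr9:21512158-21512178, minus strand) lies in its host transcript MIR31HG. miR-572 (chr4:11368887-11368906, plus strand) lies on another chromosome than RNPS1, the gene it shares a probe set with. miR-106b and miR-93 (chr7:100094043-100094063 and chr7:100093815-100093837, minus strand) lie together in MCM7 and have the same seed, AAAGUGC. In all, 27 seeds were shared by 2 or more of these microRNA genes. The array reads the host transcript and not the mature microRNA, so the values below are not microRNA levels.

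Start regions show the other relations. The windows run from 250 bases before to 50 bases after the annotated start in RefSeq GRCh38.p14, and capitals mark motif matches found on either strand: TGANTCA, the AP-1 motif, in the first and second, the NF-kB motif in the third, and CCAAT in the fourth, where every match lies on the opposite strand and is read in reverse.
CYTOR: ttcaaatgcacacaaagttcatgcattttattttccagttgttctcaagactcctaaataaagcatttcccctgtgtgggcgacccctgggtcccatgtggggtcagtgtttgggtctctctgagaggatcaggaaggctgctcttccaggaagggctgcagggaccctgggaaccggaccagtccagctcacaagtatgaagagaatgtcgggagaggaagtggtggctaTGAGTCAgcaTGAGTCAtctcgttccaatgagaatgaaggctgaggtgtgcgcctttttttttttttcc
MIR4435-2HG: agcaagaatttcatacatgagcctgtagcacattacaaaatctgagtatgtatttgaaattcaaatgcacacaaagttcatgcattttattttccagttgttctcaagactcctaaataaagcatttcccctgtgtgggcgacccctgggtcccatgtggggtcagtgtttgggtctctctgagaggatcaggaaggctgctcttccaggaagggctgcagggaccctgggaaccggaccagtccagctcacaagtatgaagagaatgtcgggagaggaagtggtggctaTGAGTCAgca
ITGA1: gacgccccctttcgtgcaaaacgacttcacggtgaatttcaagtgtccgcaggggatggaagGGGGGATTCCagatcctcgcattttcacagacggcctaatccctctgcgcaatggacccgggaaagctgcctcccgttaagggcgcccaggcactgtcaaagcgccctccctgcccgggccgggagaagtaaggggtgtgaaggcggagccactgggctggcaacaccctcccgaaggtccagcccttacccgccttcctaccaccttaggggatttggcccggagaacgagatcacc
SARS2: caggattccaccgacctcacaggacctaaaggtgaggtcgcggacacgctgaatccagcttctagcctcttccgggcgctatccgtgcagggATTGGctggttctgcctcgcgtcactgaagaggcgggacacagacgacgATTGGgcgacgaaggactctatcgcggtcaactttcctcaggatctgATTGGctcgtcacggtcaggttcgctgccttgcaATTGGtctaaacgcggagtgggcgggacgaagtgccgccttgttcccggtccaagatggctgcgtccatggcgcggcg
CYTOR (chr2:87455177-87455476, plus strand) and MIR4435-2HG (chr2:111495112-111495411, minus strand) are copies of a long non-coding RNA gene on chromosome 2, and they are shown because they share a probe set that read 3.35-fold higher in SP. Their windows hold a run of 241 identical bases, offset because the annotated starts differ. CYTOR has TGAGTCA at 19 and again at 9 bases before its start, and the first of these is also inside the MIR4435-2HG window. At least 1 match to TGANTCA is held by 7.71% of the 35116 start windows, and at least 2 by 0.515%. ITGA1 and PELO share a window entirely (chr5:52787666-52787965, plus strand), with 1 NF-kB motif, which 11.3% of windows hold. SARS2 (chr19:38930714-38931013, minus strand) and MRPS12 start in opposite directions, 181 bases apart, and the window holds 4 CCAAT boxes, as do at least 4 in 0.991% of windows. A motif match describes the letters in the window and shows no binding.

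Across the members the arrays were close to each other. The median value was 7.29 in SP and 7.30 in NSP, with a Pearson r of 0.988 between SP and NSP over the 2406 probe sets, all read on the same arrays and normalised together. A value was called at the floor or above when the higher of SP and NSP reached 7.44, the median of all values on both arrays, and 1175 members (48.8%) did so, against 52.1% of all probe sets. The floor is a position among all values and not a detection limit. Over those 1175 the median difference was -0.06 and the SD across probe sets 0.286, against -0.05 and 0.282 over 7647 single-symbol probe sets. SP was lower than NSP in 716 of them (60.9%), beside a background of 58.1 percent of all probe sets at the floor and 59.5 percent of single-symbol ones. In sorted cells, a transcript carried by fewer cells and one with less RNA in each cell cannot be told apart. Equal values on both arrays occurred in 29 of the 2406.

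Few members differed by 2-fold: 5 were higher in SP and 5 lower, each 0.426% of the 1175. The background over all probe sets at the floor was 0.959 percent higher and 0.724 percent lower, and over single-symbol probe sets 0.641 percent and 0.131 percent. At 1.5-fold, 28 members were higher (2.38%) and 35 lower (2.98%), beside 3.71 percent and 2.75 percent of all probe sets and 3.16 percent and 1.48 percent of single-symbol ones. The split turned to 36 higher and 32 lower when a lowess trend of the difference on signal was removed. The shares of members past each fold thus lay below or near those of all probe sets. As deposited, lower calls outnumbered higher ones at 1.5-fold, unlike among single-symbol probe sets, and without the trend they did not. Many of the lower calls reached the floor in NSP alone, where they were high, so nothing is read from this direction, which was not tested.

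**Figure D1:**
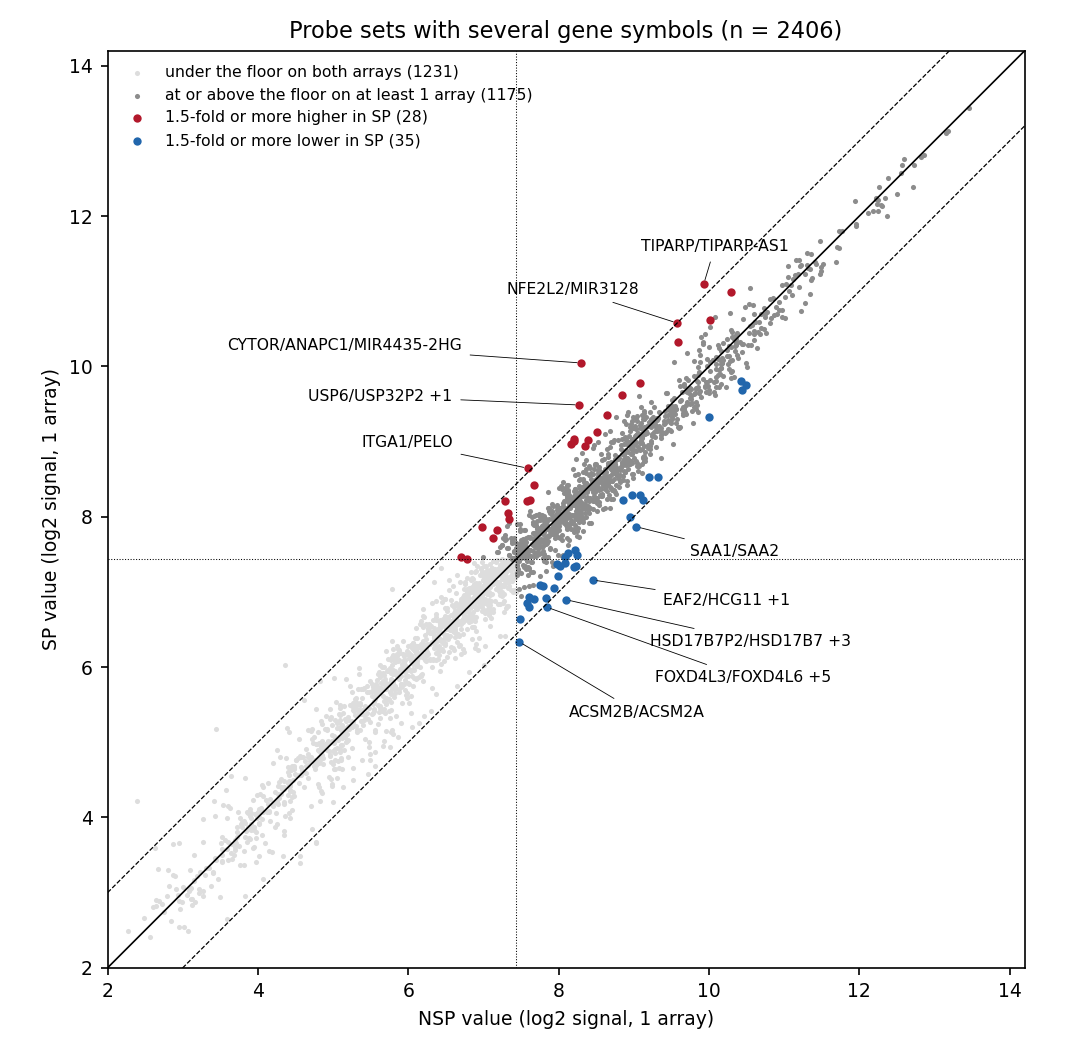
Log2 signal in SP (y axis) against NSP (x axis), 1 array each, for all 2406 probe sets with several gene symbols. The solid line is equality, the dashed lines are 2-fold and the dotted lines the floor of 7.44; the 5 probe sets above the upper dashed line and 5 below the lower one that reach the floor are named.

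Among the members at the floor, a long non-coding RNA had the largest difference. The probe set annotated CYTOR, ANAPC1 and MIR4435-2HG read 10.05 in SP and 8.30 in NSP, 3.35-fold higher. CYTOR is a cytoskeleton-associated long non-coding RNA, MIR4435-2HG its copy, and ANAPC1 encodes the largest subunit of the anaphase-promoting complex. By the array's ID order the probe set lies at CYTOR, on its strand, with the other genes elsewhere on the chromosome. A single-symbol probe set of ANAPC1 read 9.63 in SP and 9.82 in NSP, a difference of -0.18, so the signal of the ANAPC1-only probe set did not follow the shared one. Under the floor, the olfactory receptor OR4N2 with OR4N3P differed by more, at 4.22 in SP and 2.39 in NSP.

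The other 4 members at 2-fold or more higher in SP each named a protein-coding gene, together with pseudogenes, an antisense RNA, a nested gene or a microRNA. The probe set of USP6, a ubiquitin protease gene, and of the pseudogenes USP32P2 and USP32P1 read 9.49 in SP and 8.27 in NSP, 2.32-fold higher. It lies at the pseudogenes, with USP6 elsewhere on the chromosome. TIPARP, a mono-ADP-ribosyltransferase induced through the aryl hydrocarbon receptor, shared a probe set with its antisense gene TIPARP-AS1 that read 11.10 and 9.93, 2.24-fold higher. On the strand the array reads there, TIPARP is the gene. The collagen receptor subunit ITGA1 and the ribosome rescue factor PELO, nested in it on the same strand, read 8.65 in SP and 7.59 in NSP, 2.08-fold higher. NFE2L2, which encodes the antioxidant regulator NRF2, read 10.58 and 9.58 together with MIR3128 and stood exactly at the threshold, at 2.0-fold. Both values were at the floor or above in all 5 of these probe sets.

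The next higher members named genes of several kinds. AKAP13, a protein kinase A anchoring protein named together with the distant FABP5, read 8.21 in SP and 7.28 in NSP, 1.9-fold higher and just under the 2-fold line. MAP3K14, the NIK kinase of the non-canonical NF-kB pathway, read 9.01 and 8.20 with its antisense gene, 1.75-fold higher. NFKBIZ, an atypical inhibitor and co-regulator of NF-kB, read 10.33 and 9.59 on a probe set it shares with NXPE3, 1.67-fold higher. A single-symbol probe set of NXPE3 went the other way, 8.96 in SP and 9.13 in NSP. AMOTL2, an angiomotin family member and target of YAP, read 9.62 and 8.85 with a ribosomal pseudogene in the same place, 1.70-fold higher. PPP4R2, a regulatory subunit of protein phosphatase 4, read 9.03 and 8.21 with its neighbour GXYLT2, 1.77-fold higher. The translation elongation factor gene EEF1A1, named with a pseudogene elsewhere, read 8.96 in SP and 8.17 in NSP, 1.74-fold higher.

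Others of the 15 furthest higher members were dimmer on the NSP array. OR1D5 with OR1D4, olfactory receptor copies, read 7.86 in SP and 6.99 in NSP. DNMBP, a Cdc42 exchange factor, read 7.47 and 6.70 with its antisense gene, and FAM106A with its copy FAM106C read 8.05 and 7.33. These NSP values lay under the floor, as did that of AKAP13. RAPGEF6, a Rap exchange factor, with the adjacent folliculin-interacting gene FNIP1 read 8.43 in SP and 7.67 in NSP, both above it.

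**Figure D2:**
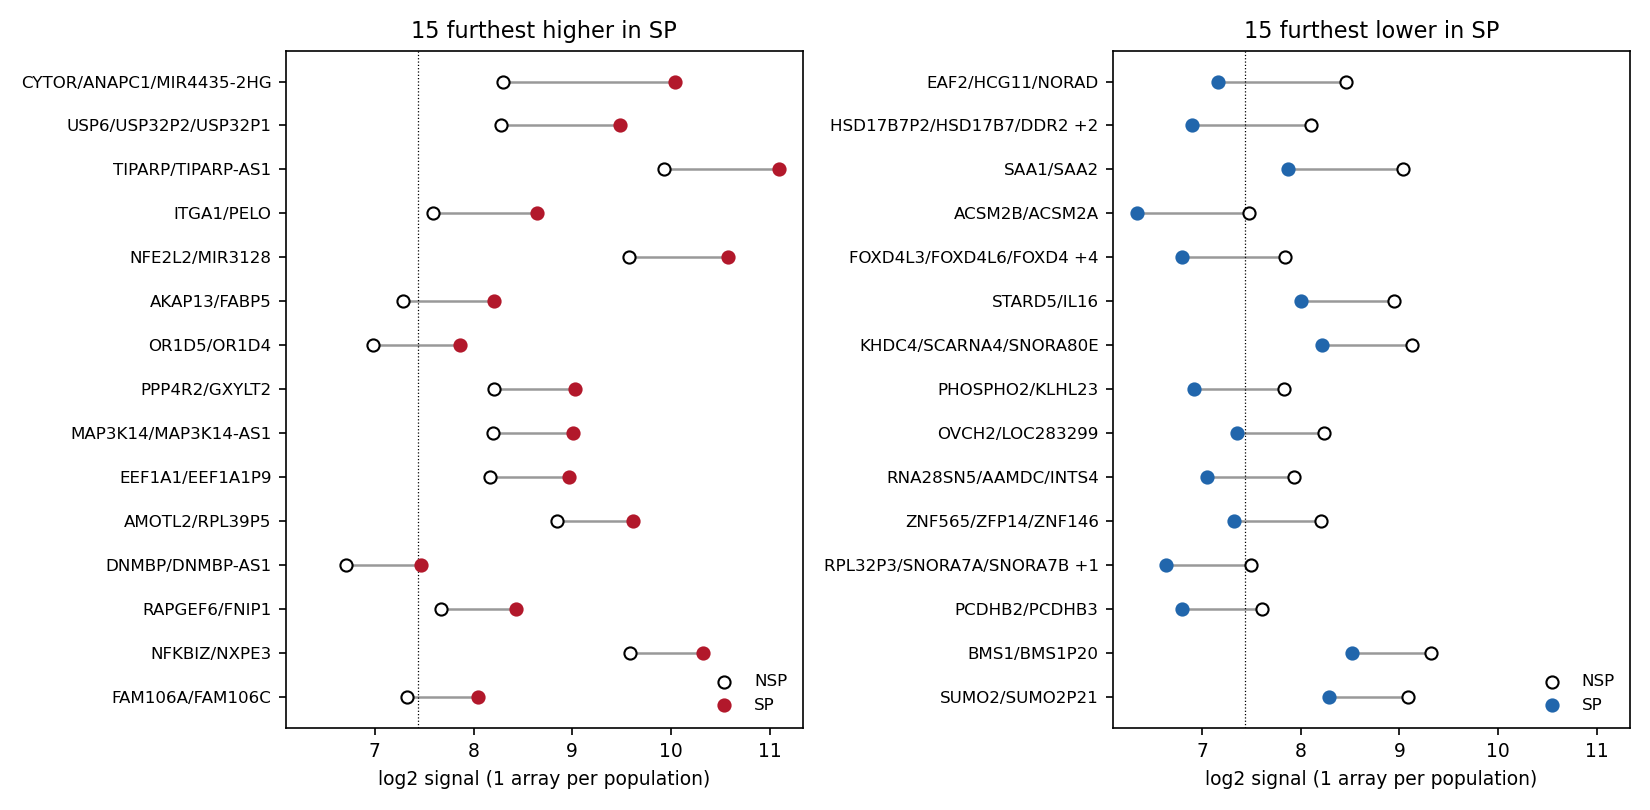
Log2 signal (x axis, 1 array per population) of the 15 members furthest higher in SP (left) and the 15 furthest lower (right) among those reaching the floor; open points are NSP, filled points SP, and the dotted line is the floor of 7.44. CYTOR with ANAPC1 and MIR4435-2HG spans the widest gap, 8.30 to 10.05, and many of the lower members have their SP point under the floor.

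On the lower side, 4 of the 5 members at 2-fold had an SP value under the floor. The probe set of EAF2, a partner of the ELL elongation factors, with the long non-coding RNAs HCG11 and NORAD read 7.16 in SP and 8.45 in NSP, 2.45-fold lower. It lies at EAF2, with both other genes on other chromosomes. The acute-phase serum amyloid genes SAA1 and SAA2 read 7.87 and 9.03, 2.24-fold lower, and this was the 1 probe set of the 5 above the floor on both arrays. The probe set of HSD17B7P2, a pseudogene of a cholesterol synthesis enzyme, with HSD17B7, DDR2 and a pair of non-coding genes read 6.90 in SP and 8.10 in NSP, 2.31-fold lower. A single-symbol probe set of DDR2, a collagen receptor kinase, read 10.5 and 10.46 and did not share that difference. ACSM2B with ACSM2A, medium-chain acyl-CoA synthetase copies, read 6.34 and 7.47, 2.20-fold lower. A group of 7 forkhead copies led by FOXD4L3 read 6.80 in SP and 7.84 in NSP, 2.06-fold lower, just past the threshold.

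Just short of the 2-fold line on the lower side was STARD5, a cholesterol-binding protein gene, with IL16 on the other strand, at 8.0 in SP and 8.94 in NSP, 1.92-fold lower. KHDC4, an RNA-binding protein gene that hosts the small Cajal body RNA SCARNA4, read 8.22 and 9.13, 1.88-fold lower. BMS1, a GTPase of ribosome assembly, and BMS1P20 read 8.52 and 9.32, 1.74-fold lower. That probe set lies at the pseudogene, and the single-symbol probe set of BMS1 read 8.5 in SP and 8.42 in NSP, in the other direction. The small ubiquitin-like modifier gene SUMO2 and its pseudogene SUMO2P21 read 8.29 and 9.09, 1.74-fold lower. ZNF565, with ZFP14 and ZNF146, read 7.33 in SP and 8.20 in NSP, while ZNF146 alone, on the other strand, read 8.65 and 8.37.

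The remaining lower members of the 15 were all under the floor in SP. PHOSPHO2 with KLHL23 read 6.92 in SP and 7.83 in NSP, and OVCH2 with a LOC gene 7.35 and 8.23. AAMDC and INTS4, named with the 28S ribosomal RNA gene RNA28SN5, read 7.05 in SP and 7.93 in NSP. The probe set of RPL32P3, RPL32 and the snoRNAs SNORA7A and SNORA7B read 6.64 and 7.49, and the clustered protocadherins PCDHB2 and PCDHB3, neuronal adhesion molecules, 6.80 and 7.60. Of the 35 members lower by 1.5-fold, 16 had both values at the floor or above.

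The members were then grouped by how their names relate. A microRNA, snoRNA or other small RNA stood on 194 members outside the readthrough and variable-exon names, and 153 of these (78.9%) reached the floor. Their median difference was -0.04, or 0.02 after removal of the lowess trend, so it had no stable sign. Genes sharing a name stem, mostly duplicated families, made up 722 members. Only 252 of them (34.9%) reached the floor. Of those, 5 were 1.5-fold higher (1.98%) and 14 lower (5.56%), beside 3.71 percent and 2.75 percent of all probe sets. Of the 14, 8 reached the floor in NSP alone, where they were high, and 6 on both arrays, so nothing is read from their number. Their median difference of -0.05 became 0.00051 without the lowess trend. Pairs with unrelated names were the commonest kind, 1081 members with 584 at the floor and a median of -0.09. By 1.5-fold, 11 were higher (1.88%) and 12 lower (2.05%), both below those shares of all probe sets.

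Antisense and intronic partners stood on 88 members named for both a gene and its antisense or intronic transcript, of which 38 reached the floor, with a median of -0.04. By 1.5-fold, 3 were higher (7.89%) and 1 lower (2.63%), beside 3.71 percent and 2.75 percent of all probe sets, and nothing is read from so few. The 3 higher ones, TIPARP, MAP3K14 and DNMBP, were all read on the strand of the protein-coding gene. SERTAD4, a gene of the SERTA domain family, was the 1 lower, at 6.86 in SP and 7.57 in NSP. Readthrough names, which join adjacent genes, stood on 31 members, 19 at the floor, with 14 lower in SP (73.7%, beside 58.1 percent of all probe sets), a median of -0.09 and none at 1.5-fold. ANKHD1 with EIF4EBP3 and their joint name read 8.92 in SP and 8.34 in NSP, and SCHIP1 with IQCJ 9.32 and 8.76. P2RY11, a purinergic receptor, with its PPAN readthrough read 7.49 and 8.05. Long non-coding, LOC or pseudogene partners stood on 288 members, 129 at the floor, with a median of -0.01 that became 0.03 without the lowess trend.

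By distance between the named genes, the medians lay close together. Members whose genes overlapped had a median of -0.07 (458 at the floor), neighbours within 100 kb also -0.07 (385), genes further apart on 1 chromosome -0.03 (132) and genes on different chromosomes -0.05 (187). The median for genes further apart became 0.02 without the lowess trend. Members with genes on different chromosomes included 6 that were 1.5-fold higher (3.21%) and 11 that were lower (5.88%), beside 3.71 percent and 2.75 percent of all probe sets. Of these, 3 of the 6 higher and 5 of the 11 lower reached the floor on the brighter array alone, so nothing is read from the shares. The EAF2 and HSD17B7P2 probe sets are among those 5, and the SUMO2 and BMS1 probe sets had both values at the floor.

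Of the orientations, back-to-back gene pairs stood lowest. Among members with exactly 2 genes, those arranged head to head had a median difference of -0.16, with 64 of 89 lower in SP (71.9%). Tail-to-tail pairs had a median of -0.08 (149 at the floor) and pairs on the same strand -0.05 (198). For the 100 head-to-head members with starts within 1000 bases of each other, 64 reached the floor, the median was -0.18 and 47 (73.4%) were lower, beside 58.1 percent of all probe sets. Some gene pairs are counted in both orders among the 64, such as MRPS12 with SARS2 and CENPN with CMC2. Some of the 64 also recur in the oxidative phosphorylation and mitochondrial ribosome lists below, such as NDUFB11 with RBM10 and SKA3 with MRPL57. The values of these groups are therefore not independent. The lower probe sets listing CDC26, NEURL2 and CUTC first reached the floor in NSP alone. Without the lowess trend the median was -0.14, with 43 lower (67.2%), and it was negative under every scaling tried. Only 1 of the 64 (1.56%) was 1.5-fold different, beside 3.71 percent higher and 2.75 percent lower of all probe sets. It was BRIX1, a ribosome assembly factor, with the checkpoint gene RAD1, at 10.62 in SP and 10.01 in NSP. The single-symbol probe set of RAD1 read 9.09 and 9.32.

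Named head-to-head pairs were chosen for this paragraph after their values were seen. CDC26, a subunit of the anaphase-promoting complex, with the splicing factor PRPF4 read 7.28 in SP and 7.84 in NSP. SKA3, a kinetochore component, with the mitochondrial ribosomal gene MRPL57 read 7.69 and 8.14. MRPS12, also of the mitochondrial ribosome, with the seryl-tRNA synthetase SARS2 read 8.78 in SP and 9.14 in NSP. A second probe set lists the same genes in the other order and is read on the SARS2 strand, at 8.35 and 8.64. Both strands of this pair, whose start region is printed above, were thus lower in SP, by 0.36 and by 0.29. The histone gene regulator NPAT, read on its own strand with the DNA damage kinase gene ATM on the other, was higher, at 8.42 in SP and 8.12 in NSP. The probe set on the strand of ATM went the other way under the floor, at 6.94 and 7.25.

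**Figure D3:**
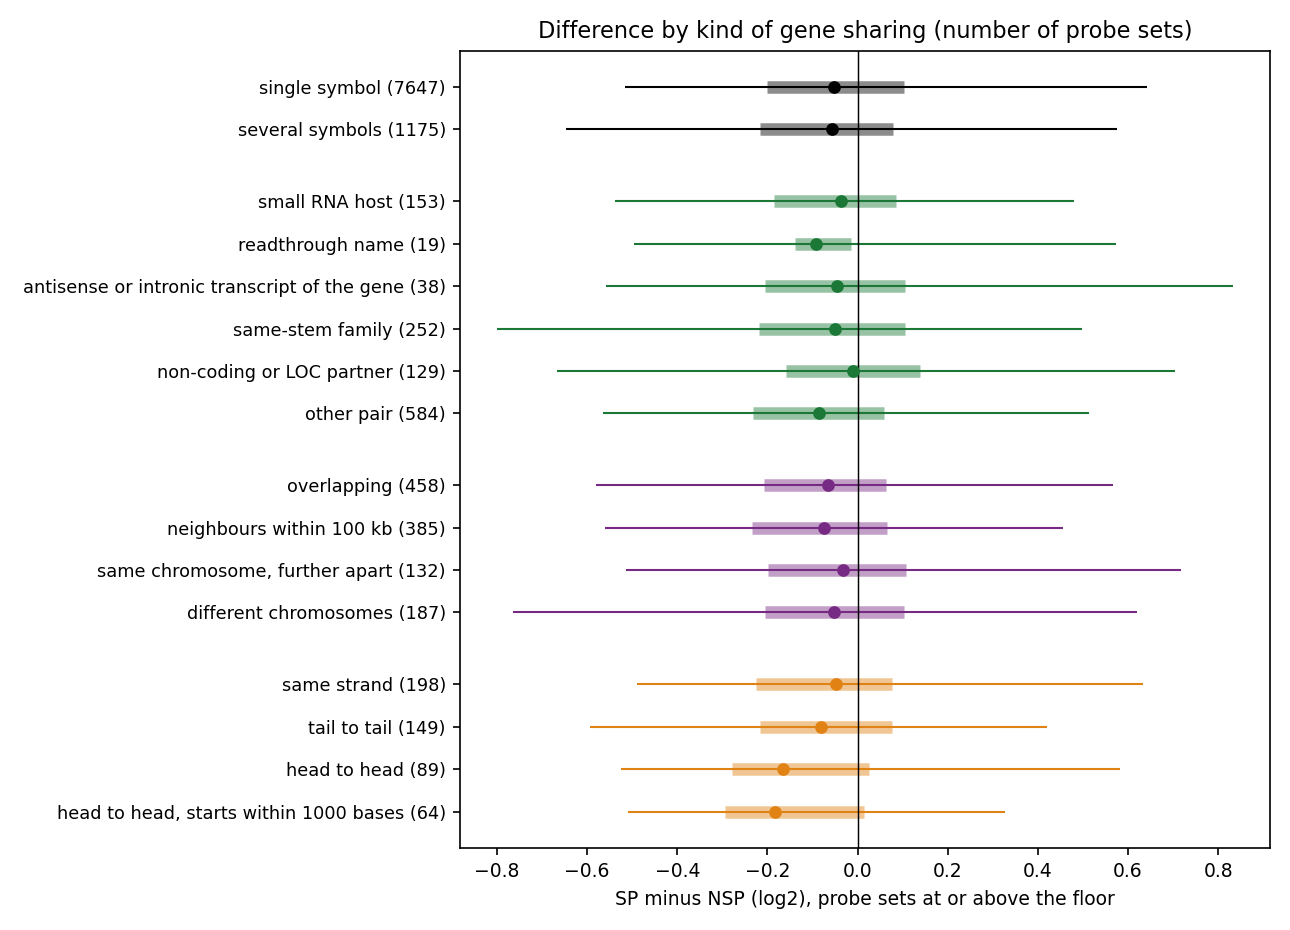
SP minus NSP (log2, x axis) for probe sets reaching the floor, by number of symbols (black), kind of name (green), distance between the genes (purple) and orientation of 2-gene members (orange), with the number of probe sets in brackets. Points are medians, thick bars the middle 50 percent and thin lines the central 95 percent of probe sets, not errors; head-to-head pairs have the lowest medians, -0.16 and -0.18.

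Gene lists were applied to the members by symbol, and each count lower in SP stands beside the 58.1 percent of all probe sets at the floor that were lower. Oxidative phosphorylation, the respiratory chain and ATP synthase of mitochondria, stood on 33 members, 23 at the floor, with a median of -0.23 and 19 lower in SP, or 82.6% (median over all members -0.06). Of the 23 at the floor, 2 were 1.5-fold lower and 1 was higher, beside 2.75 percent and 3.71 percent of all probe sets. Nothing is read from so few. COX11, an assembly factor of cytochrome oxidase, with TOM1L1 read 7.08 in SP and 7.79 in NSP, 1.64-fold lower. The complex I subunit gene NDUFA3 with TFPT on the other strand read 7.47 and 8.09, 1.53-fold lower. ATP5MG, an ATP synthase subunit, read 7.09 in SP and 7.66 in NSP with a copy elsewhere. The probe sets of COX11, of ATP5MG and of CUTC with COX15 are among the 19, but reached the floor in NSP alone, where they were high. The higher one, KDM5B with COX7C, at 9.02 and 8.39, lies at the histone demethylase KDM5B, with COX7C on another chromosome. Without the members whose listed gene lay on the other strand or elsewhere, 17 of 19 were lower and the median was -0.30.

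Some of these genes were also named on other probe sets. ATP5PO, an ATP synthase subunit read with DONSON, differed by -0.41, and its single-symbol probe set, at 10.06 in SP and 10.42 in NSP, by -0.36. NDUFC1, a complex I subunit read with MGARP at 10.73 and 11.22, differed by -0.49, and its single-symbol probe set by -0.31. The probe set of DONSON with ATP5PO was dimmer than that of ATP5PO alone, at 8.40 in SP and 8.80 in NSP. Both shared probe sets list the neighbour first, and which of the named genes was read there was not tested. ATP5ME was named on probe sets in both orders with the myosin light chain MYL5: the one listing ATP5ME first read 9.25 in SP and 9.79 in NSP, and the one listing MYL5 first, on the MYL5 strand, 8.04 and 7.99.

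The mitochondrial ribosome stood on 19 members, and all 11 at the floor were lower in SP, with a median of -0.12, beside the same 58.1 percent. In 3 of the 11, SKA3 with MRPL57, SARS2 with MRPS12 and MIF4GD with MRPS7, the probe set is read on the strand of the neighbour, and MRPS12 with SARS2 is counted in both orders. The remaining 8 had a median of -0.11. Without the lowess trend 9 of the 11 were lower and the median was -0.06. The lowest were SKA3 with MRPL57 and MRPS12 with SARS2, given above, and MRPL53 with CCDC142 read 9.64 in SP and 9.81 in NSP. None reached 1.5-fold. Cytoskeletal tubulins and actins were on 17 members, 9 at the floor, with 8 lower (88.9%, beside 58.1 percent) and a median of -0.17. For 3 of the 8 the listed name is not a tubulin or actin gene read on its strand: the actin pseudogenes ACTG1P20, in TMEM222, and ACTG1P4, among amylase genes, and TUBGCP2, on the strand opposite to ZNF511. The probe set of ACTG1P4 also reached the floor in NSP alone, where it was high, so nothing is read from the number. TUBA4A, an alpha-tubulin, with STK16 read 8.51 and 9.0, and TUBA1C with TUBA1B 11.27 and 11.50. TUBA1A with TUBA1B was the higher one, 8.14 in SP and 7.98 in NSP.

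Translation genes gave mixed values. Ribosomal proteins and their pseudogenes were on 41 members, 27 at the floor, with a median of -0.10 and 19 lower. Among the lower ones, RPL32P3 with RPL32 reached the floor in NSP alone, at 6.64 in SP and 7.49 in NSP. The probe sets of DNAJC9 with RPL26 and of NDUFS5 with RPL10 name a ribosomal gene on another chromosome. Nothing is therefore read from the number. RPL30, a large-subunit protein gene named with SNORA72, read 12.39 in SP and 12.72 in NSP. RPS2, with the snoRNAs SNORA10 and SNORA64, was higher, 8.64 and 8.20. DNAJC9, a chaperone gene whose probe set also names RPL26, read 9.33 in SP and 10.00 in NSP. Translation factors were on 21 members, 18 at the floor, 9 higher and 9 lower, with a median of -0.01 that became 0.06 without the lowess trend. Among initiation factors that host small RNAs, EIF4G2, EIF4A2 and EIF5 differed by 0.29, 0.14 and 0.12 and EIF1AX, with SCARNA9L, by -0.38. EIF6 with EDEM2 differed by -0.31.

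Small RNAs followed no single direction. A snoRNA or scaRNA was named on 87 members, 76 of them at the floor, with 28 higher and 47 lower and a median of -0.03 that turned to 0.03 without the lowess trend. KPNA4, an importin that hosts SCARNA7, read 10.06 in SP and 9.54 in NSP, and NOP58, a core protein of snoRNA particles, with SNORD11 10.30 and 9.92. SNHG12, a non-coding snoRNA host, read 9.99 and 10.51, and NCAPD2, a condensin subunit with SCARNA10, 9.73 and 10.22. GAS5, a growth arrest transcript that hosts many snoRNAs, was under the floor, at 6.69 in SP and 7.07 in NSP.

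MicroRNA genes stood on 111 members, 80 at the floor, 37 higher and 43 lower, with a median of -0.03 that became 0.01 without the lowess trend. Of the 80, 3 were 1.5-fold higher and 2 lower, near the 3.71 percent and 2.75 percent of all probe sets. Besides NFE2L2 with MIR3128, GDF15 with MIR3189 read 10.99 in SP and 10.29 in NSP, 1.63-fold higher, and SVIL with MIR604 7.72 and 7.13, 1.51-fold higher. The 2 lower ones were RNPS1, an RNA-binding splicing factor gene, with MIR572 at 9.80 and 10.42, and MIR31 with MIR31HG at 7.52 in SP and 8.12 in NSP, 1.51-fold lower. VMP1 with MIR21 and CLTC hardly differed, at 11.39 and 11.41. MCM7, a subunit of the replicative helicase that hosts MIR106B, MIR25 and MIR93, read 11.15 in SP and 11.35 in NSP.

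**Figure D4:**
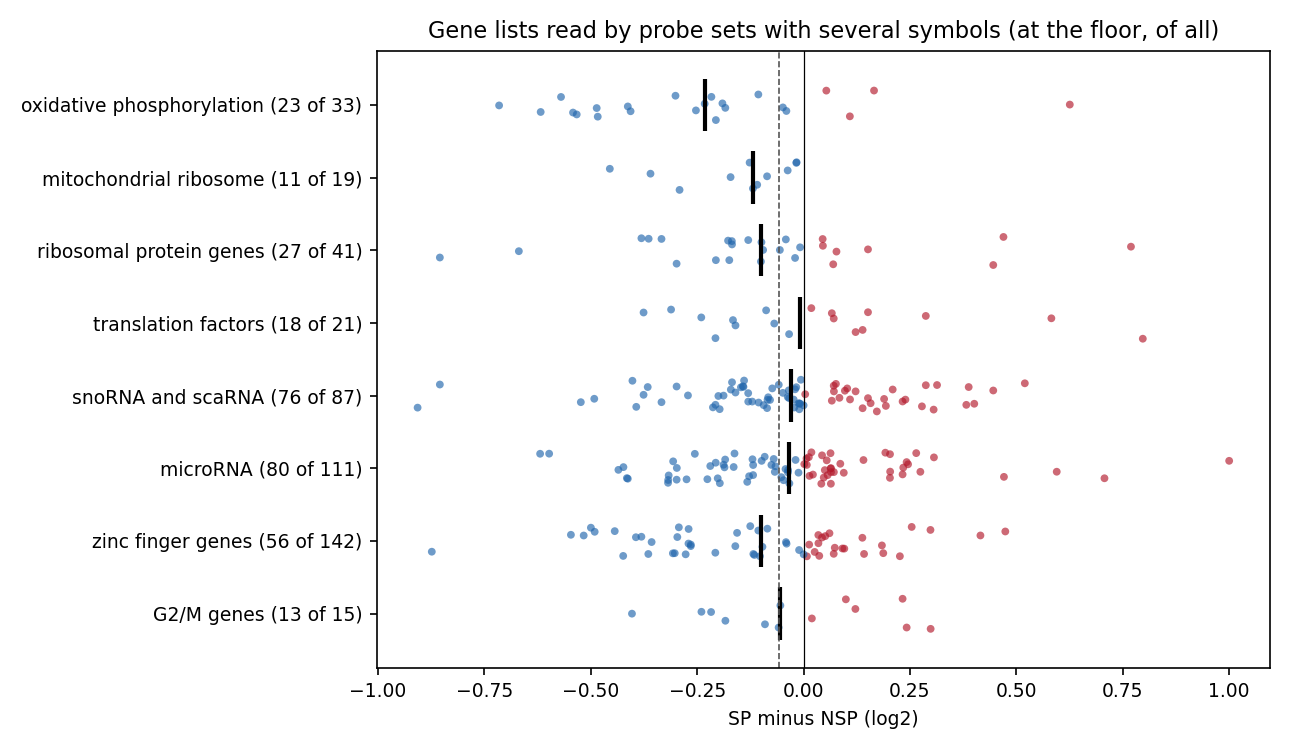
SP minus NSP (log2, x axis) of single members at the floor (points, red higher and blue lower in SP) for 8 gene lists, with the number at the floor of all members of the list in brackets. Black bars are list medians and the dashed line the median over all members, -0.06; oxidative phosphorylation has the lowest list median, -0.23, and the points are jittered vertically.

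Lists tied to stimulated cells held few members. Immediate early genes were on 4 members, 3 at the floor, all higher: the antiproliferative gene BTG1 read 11.04 in SP and 10.54 in NSP, the nuclear receptor NR4A2 9.46 and 9.10, and the survival gene MCL1 11.41 and 11.16. MCL1 lies at the place of a probe set read on the strand of ADAMTSL4-AS1, with its own strand not known, and NR4A2 likewise at one read on the strand of FLJ46875. NF-kB and inflammatory genes were on 7 members, 3 at the floor. Besides NFKBIZ, the superoxide dismutase gene SOD2 with SOD2-OT1 read 11.42 and 11.20, and the chemokines CXCL1 and CXCL2 were lower, 8.16 in SP and 8.36 in NSP. YAP and TEAD target genes were on 3 members: besides AMOTL2, the phosphatase PTPN14 read 10.24 and 10.13. These medians, 0.36, 0.22 and 0.44, rest on 3, 3 and 2 probe sets.

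Near-identical gene families were also read here. Metallothioneins, metal-binding proteins with closely related genes, were on 6 members; all 3 at the floor were higher, by 0.30 for MT1E with MT1M and MT1JP, 0.16 for MT1H with MT1HL1 and 0.13 for MT1H with MT1F. The first of these reached the floor in SP alone, at 7.68 against 7.38. Under the floor the family was mixed: another probe set of MT1JP, MT1E and MT1M, which also names MT1P3, differed by -0.39, MT1IP with MT1X by -0.40 and MT1M with MT1P3 by 0.19. The heat shock pair HSPA1B and HSPA1A was on a probe set at 10.92 in SP and 11.01 in NSP and on another, listed in the other order, at 5.75 and 6.06. HSP90AB1, a cytosolic chaperone, with a pseudogene read 12.39 and 12.27. Drug-metabolising enzymes were on 39 members, of which 7 reached the floor: AKR1C1 with AKR1C2 and AKR1C3, aldo-keto reductases, read 11.66 in SP and 11.47 in NSP, and GSTM2 with GSTM1 and GSTM4, glutathione transferases, 7.22 and 7.59. The histone genes H3C4 and H2AC7, which share a start window, read 9.36 and 8.65, 1.64-fold higher. HLA-B with HLA-C, antigen-presenting molecules, read 13.11 in SP and 13.15 in NSP. Probe sets of the stem cell factor POU5F1 and its pseudogenes were under the floor, at 7.28 and 6.90 and at 4.41 and 4.26.

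Further families gave medians with few large differences. Zinc finger genes were on 142 members, 56 at the floor, with 33 lower, 22 higher and a median of -0.10. ZNF302 with ZNF181 read 7.21 in SP and 7.75 in NSP. Families spread by segmental duplication were on 44 members, 14 at the floor, 10 of them lower, with a median of -0.18. Among the 10, the probe sets listing GUSBP4, AMY2B and LAT first reached the floor in NSP alone, where they were high, so nothing is read from the number. GUSBP4 with its copies read 7.10 in SP and 7.75 in NSP. RANBP2, a nuclear pore protein, with its RGPD copies read 8.94 in SP and 8.35 in NSP, 1.51-fold higher. Genes of G2 and mitosis, a list that also took kinesins by name, were on 15 members, 13 at the floor, 6 higher and 7 lower. Among the higher ones, AURKA and MAD2L1 lie elsewhere and KIF9 on the other strand. Single-symbol probe sets differed by -0.25 for AURKA, -1.21 for MAD2L1, -0.39 for CENPA and 0.31 for KIF2A. The split is therefore not read as one of mitosis genes. On the lower side, the kinesin KIF4A with KIF4B read 8.74 in SP and 9.14 in NSP. DNA replication genes were on 7, of which 6 reached the floor and 4 were lower, the sliding clamp gene PCNA with its antisense gene at 10.07 in SP and 10.28 in NSP. Interferon response genes were on 15, with 6 at the floor and 4 lower, IFITM4P with HLA-F-AS1 at 7.49 and 8.25. Genes with an ABC name, a family that includes dye efflux pumps but not only pumps, were on 7 members, 4 at the floor. ABCB6 with ATG9A on the same strand read 8.73 in SP and 8.85 in NSP, and ABCF1 with MIR877 10.60 and 10.67. The cyclin gene CCNF, read on its own strand with ABCA3 on the other, read 7.61 and 7.71. The pseudogene ABCA11P with ZNF721 read 9.21 in SP and 9.02 in NSP.

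Marker genes of the cell line were hardly covered by shared probe sets. Keratin markers were on 4 members and haemoglobin beta on 1, and all were under the floor. On single-symbol probe sets the epithelial keratins KRT8 (13.18 in SP, 12.77 in NSP) and KRT18 (10.57 and 10.32) were well above it. KRT19 (7.73 and 7.58) and KRT7 (7.55 and 7.53) lay just above it, and the uroplakins UPK1A, UPK2 and UPK3A, markers of mature urothelium, lay under it. Of 5 markers of blood and endothelial cells, CD14 passed the floor, at 7.73 and 7.64, and PTPRC, CD3E, HBB and PECAM1 did not.

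A gene on a shared probe set was often measured a second time on a probe set of its own. Such pairs numbered 834 over 797 members, and in 285 both readings reached the floor. Across the 71 pairs whose gene lay at the place of the shared probe set on its strand, the differences correlated at a Pearson r of 0.29. It was 0.02 over 107 pairs whose gene lay there on the other strand and -0.21 over 55 pairs whose gene lay elsewhere. The signal levels, SP and NSP added, correlated at only 0.008 over the 71 pairs on the same strand. The points share arrays and normalisation, some genes occur more than once, and no test was made. Strand made the annotation readable in part: of the 686 members with exactly 1 gene on the strand of the flanking probe sets and no gene of unknown strand, that gene was listed first in 658 (95.9%).

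**Figure D5:**
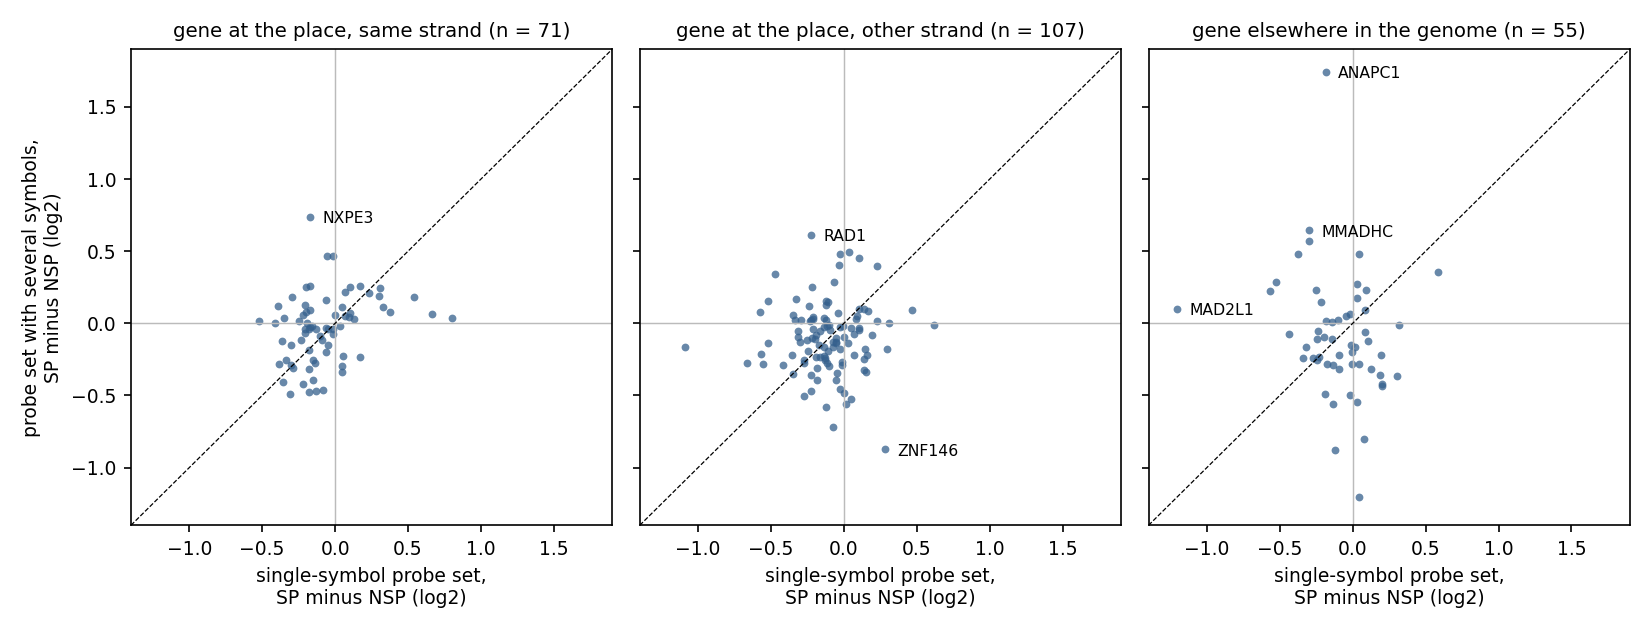
Difference SP minus NSP (log2) of the probe set with several symbols (y axis) against that of a single-symbol probe set of one of its genes (x axis), by where that gene lies; the dashed line is equality. Points for genes elsewhere show no shared trend, with ANAPC1 at 1.75 against -0.18 and MAD2L1 at 0.10 against -1.21.

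Of the 5 largest disagreements, 4 involved a gene that lay elsewhere, and the other was ZNF146, on the strand opposite to ZNF565. MAD2L1, the spindle checkpoint gene, read 6.61 in SP and 7.82 in NSP alone, but 7.59 and 7.49 on a probe set at MNAT1, a subunit of the CDK-activating kinase. MMADHC, a cobalamin metabolism gene, read 8.42 and 8.72 alone but 7.83 and 7.19 with ABTB2. Other genes differed in the same direction on both probe sets. KLHL23 with PHOSPHO2 differed by -0.91 on the shared probe set and -0.53 on the mean of 2 of its own. ZNF701 differed by -0.49 with ZNF702P and by -1.09 alone, at 7.38 in SP and 8.47 in NSP. PRPF31, a splicing factor, differed by -0.35 both with TFPT and alone, and the immunophilin FKBP8 by -0.43 with PGPEP1 and -0.33 alone. The probe set of TFPT with PRPF31 is read on the TFPT strand, so it is not a second reading of PRPF31. For KLHL23, ZNF701 and FKBP8 the strand was not known.

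Some gene sets were listed on more than 1 member. Of 208 such pairs of probe sets, 52 had both at the floor, 48 of them in the opposite order of symbols, and 31 of the 52 had the same sign. The Pearson r between the paired differences was 0.18 over the 52. The olfactory receptors OR5P2 and OR5P3 differed by -0.67 on one and -0.66 on the other. The one listing OR5P2 first reached the floor in NSP alone, at 6.93 in SP and 7.60 in NSP. The other read 7.56 in SP, just above the floor. CSNK2B, a casein kinase subunit, listed first with LY6G5B differed by 0.01, and LY6G5B listed first by -0.73, at 9.75 in SP and 10.49 in NSP. METTL2B listed first with METTL2A, methyltransferase copies on different chromosomes, differed by -0.77, and METTL2A listed first by 0.09. The probe set listing METTL2B first reached the floor in NSP alone, at 7.22 in SP and 7.99 in NSP. SLC7A6, an amino acid transporter, listed first differed by 0.02, and SLC7A6OS, on the other strand, listed first by -0.64. The pairs named here were picked after their values were seen.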

How the data were processed

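Total RNA of sorted SP and NSP cells was measured with 1 exon array each. The authors deposited 1 table of log2 values; RMA and Partek are the tools that the submitters' processing notes name, without versions, and how probe sets were defined or filtered is not stated. That the values are log2 rests on their range and on RMA, which works on that scale. RMA gives arrays a common distribution of probe values, so a shift shared by all transcripts would not show, and the number of arrays limits the precision. Depth does not apply to arrays, and no probe intensities were used.

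Members are probe sets with 2 or more different symbols in the platform annotation, which can be old; 2 probe sets that repeat 1 symbol were left out. Members, lists, classes and named probe sets follow rules chosen with earlier results of these data known; the head-to-head pairs, the gene sets listed on more than 1 member, and SVIL, NOP58, NCAPD2, RPL30, RPS2, EIF4G2, EIF4A2, EIF5, TUBA1A, MRPL53, NDUFC1, ATP5ME, OR4N2 and the metallothioneins under the floor were named after their values were seen. Named were the 15 furthest members each way at the floor, up to 4 per class and list, 11 genes in any case, and the 5 largest disagreements and joint differences of genes with a single-symbol probe set as well, with those of Y-linked genes left out. Of the genes named in any case, H19, KRT17, KRT6A and MT2A were on no member, and CXCL8 only on a single-symbol probe set. The readthrough class as written also took antisense names and was split after they were seen. Each member was assigned a place from 3 flanking single-symbol probe sets on each side by ID order, of which at least 4 had to agree, and genes within 2 Mb counted as there. On single-symbol probe sets this found the gene's place for 97.9% of 14351 and its strand for 99.7% of 10325. Relations of genes and sequences come from RefSeq GRCh38.p14; the array's build is not given in the sources used here, so no array coordinates are printed. Likeness of proteins was not analysed here. The rules for class and place were tested on genes with known answers. The 2-fold threshold was tried only on planted differences set beyond it, an outcome fixed in advance.

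Alternatives were other floors, centring, removal of a lowess trend (span 0.3), quantile normalisation, dropping or merging symbols, joining members that share a symbol, exactly 2 symbols and, added after seeing the data, members with 1 gene on the strand and members with no gene elsewhere. Python 3.11.15, numpy 2.4.6, pandas 2.3.3, statsmodels 0.14.6, Biopython 1.88 and matplotlib 3.10.9 were used.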

Additional observations from a re-analysis of the deposited data

How the results depend on the processing

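The median difference over the members stayed negative and within 0.1 of -0.06 under all 12 alternatives, between -0.08 and -0.01. The numbers past a fold moved more. Without a floor, 9 members were 2-fold higher and 9 lower, and 55 and 82 at 1.5-fold. With both values at the floor, 1 member was 2-fold lower and 16 were 1.5-fold lower. With the floor at the 75th percentile, 1 was 2-fold lower, and 16 higher and 12 lower at 1.5-fold. Joining members that share a symbol left 3 lower at 2-fold and 23 at 1.5-fold. With exactly 2 symbols, 3 were 2-fold higher and 2 lower. With 1 gene on the strand, 2 were higher and 1 lower at 2-fold, and 9 and 12 at 1.5-fold. Without members that have a gene elsewhere, 3 and 2 remained past 2-fold, and 18 and 21 past 1.5-fold. These last 5 settings test fewer probe sets. Centring, the lowess trend and quantile normalisation left 5 and 5 at 2-fold, and gave 29 and 35, 36 and 32, and 33 and 33 at 1.5-fold.

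No paired analysis was possible because each population has 1 array and the labels carry no replicate numbers. Differences of dim probe sets, and every difference between single arrays, have no measured error. Sorting, RNA extraction and hybridisation of each population cannot be told apart from the population itself.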
